A study of Solanum lycopersicum with 6 samples.

Results

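Many genes lie so close together that their transcribed spans cross on opposite DNA strands. In the deposited count table, 902 pairs of genes overlapped in this way, and 265 of them had at least 50 counts in at least 2 of the 6 libraries for both genes. These 265 pairs are described here; they held 525 of the 19123 genes tested (2.75%), because 5 genes belonged to 2 pairs each. The counts came from RNA-seq of the fourth leaf of tomato (Solanum lycopersicum), wild-type plants of cultivar M82, 4 weeks old, grown at 24 °C in long days and then held at 45 °C for 0, 1 or 6 h. Each time had 2 libraries, described as biological replicates, and the 0 h plants were the unheated control. How many plants entered a library is not given in the sources used here, and no gene was mutated or introduced in these plants. The libraries held between 25147160 and 30738632 counts, of which the 525 genes took 3.08% to 3.6%. The identifiers fixed as leaf markers, Solyc03g034220.3 and Solyc10g086580.2, were at 847 to 1789 and 1309 to 4182 CPM in the 6 libraries, and the pollen identifier Solyc10g007270.4 at no more than 0.13.

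Overlapping genes on opposite strands are also called cis-natural antisense pairs. When both are transcribed, the polymerases can meet head to head, or the transcripts can form double-stranded RNA; in Arabidopsis, a pair of this kind that overlaps at its 3' ends gives rise to small RNAs under salt stress, and antisense transcription over FLC takes part in its silencing in the cold. Pairs that meet at their 3' ends share terminator regions, pairs that meet at their 5' ends share promoter regions, and in a nested pair the smaller gene lies wholly within the span of the other. Only stranded libraries can assign reads from the shared part to one gene, and the kit used here keeps the strand. The deposited table gives each gene as a single span from start to end with introns included, so an overlap here is one of spans and not necessarily of exons. No names or functions are attached to these genes in the tables used here, so they are called by their identifiers.

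The 3' type dominated, with 225 pairs (84.9%), against 18 at the 5' ends (6.79%) and 22 nested (8.3%). In the whole table the types were more even, with 388 pairs at 3' ends, 96 at 5' ends and 418 nested. Both genes passed the filter on low counts in 58.0% of the 3' pairs, in 18.8% of the 5' pairs and in 5.26% of the nested pairs. Most overlaps were short. Their length ranged from 1 to 4948 bp with a median of 189 bp, which was 7.71% of the shorter gene. The median was 172 bp at 3' ends, 284 bp at 5' ends and 555 bp in nested pairs, where it is the whole length of the inner gene. In 68 pairs the spans shared at least 500 bp, and in 42 pairs the overlap covered at least 50% of the shorter gene. Chromosome 1 had the most pairs (45 among 2429 tested genes) and chromosome 11 the fewest (8 among 1274). The genes resembled the tested genes in general, with a median mean level of 24.1 CPM against 21.7 CPM and a median span of 4164 bp against 3709 bp.

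**Figure D1:**
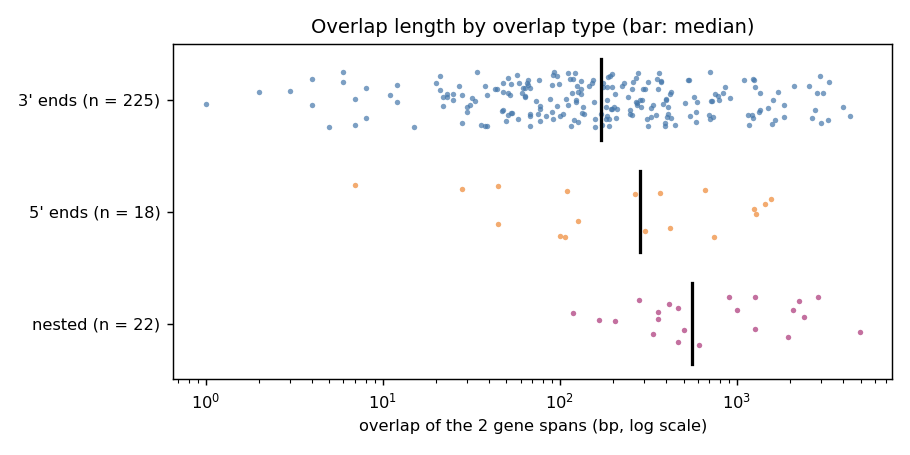
Overlap of the 2 gene spans in bp (log scale) for each of the 265 pairs, by overlap type; each point is 1 pair and the black bar is the median. The 3' pairs reach down to 1 bp with a median of 172 bp, and all 22 nested pairs overlap by at least 119 bp.

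The 2 genes of a pair were seldom equally abundant. Over the 6 libraries the gene with fewer counts held a median of 21.0% of the pair's summed counts, 21.8% in 3' pairs, 25.8% in 5' pairs and 11.1% in nested pairs. It held less than 5% in 36 pairs and less than 1% in 6 pairs. Among 243 nested pairs of the whole table whose outer gene had at least 1000 counts, the inner gene had 0 counts in 132 pairs and fewer than 1% of the outer gene's counts per kb in 169 pairs. The part of wrong-strand reads in any single pair was not tested, so the lower gene's share is given beside the pairs below.

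Most of these genes changed between the sampled times. No library came from unheated plants sampled 1 h or 6 h later. The effect of heat was thus not tested apart from that of elapsed time or time of day. At 1 h against 0 h, 334 of the 525 genes passed the test (63.6%), beside 63.5% of all tested genes. Of the members 151 (28.8%) were higher, beside 32.2% of all tested genes, and 183 (34.9%) were lower, beside 31.3%. At 6 h against 0 h, 328 genes changed (62.5%, against 58.8% of all tested genes), 163 of them higher (31.0%, against 30.9%) and 165 lower (31.4%, against 28.0%). From 1 h to 6 h, 353 genes changed (67.2%, against 66.3%), 182 higher (34.7%, against 34.7%) and 171 lower (32.6%, against 31.7%). The median log2 change of the members was -0.09, -0.07 and 0.06 in these 3 comparisons. The 3 comparisons share their libraries with one another. When all 3 times were tested together, both genes of a pair changed in 190 pairs, 1 gene in 67 and none in 8, and 83.9% of all tested genes changed. The members thus changed about as often as the tested genes in general. The split into higher and lower depends on scaling: with scaling to library size alone, 64.1% of the member genes called at 6 h against 0 h were higher (49.7% with TMM scaling) and 75.1% from 1 h to 6 h (51.6%; 65.9% with upper-quartile scaling), and the median of all tested genes moved to -0.15, 0.30 and 0.48 in the 3 comparisons. In bulk leaf tissue, fewer cells of a type and less RNA per cell cannot be told apart.

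Pairs that moved together and pairs that moved apart were about equally frequent. At 1 h, 18 pairs had both genes higher, 34 had both lower and 60 had 1 gene higher and the other lower; in 113 pairs only 1 gene passed the test and in 40 pairs neither did. Same-direction pairs were thus 19.6% and opposite pairs 22.6% of the 265. At 6 h against 0 h the order was turned, with 62 same-direction pairs (23.4%), 30 higher and 32 lower, and 45 opposite pairs (17.0%). From 1 h to 6 h there were 61 of each (23.0%), and 33 of the same-direction pairs were higher. For comparison, 2907 pairs of neighbouring tested genes that point towards each other without overlap had 20.2% same-direction and 21.4% opposite pairs at 1 h, 17.0% and 16.4% at 6 h, and 21.7% and 21.4% from 1 h to 6 h. These neighbours are given as a description, with no test of the difference. The counts moved by over 1.5 times without some single libraries: at 1 h opposite pairs numbered 36 without the first and 37 without the second 1 h library, and same-direction pairs 34 without the second. Same-direction pairs at 6 h against 0 h numbered 39 without the second 6 h library, and from 1 h to 6 h there were 33 same-direction and 38 opposite pairs without the first 1 h library and 36 opposite pairs without the second. Scaling to library size alone gave 48 pairs with both genes higher, 12 with both lower and 45 opposite at 6 h against 0 h, and 77 pairs with both genes higher, 9 with both lower and 48 opposite from 1 h to 6 h.

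**Figure D2:**
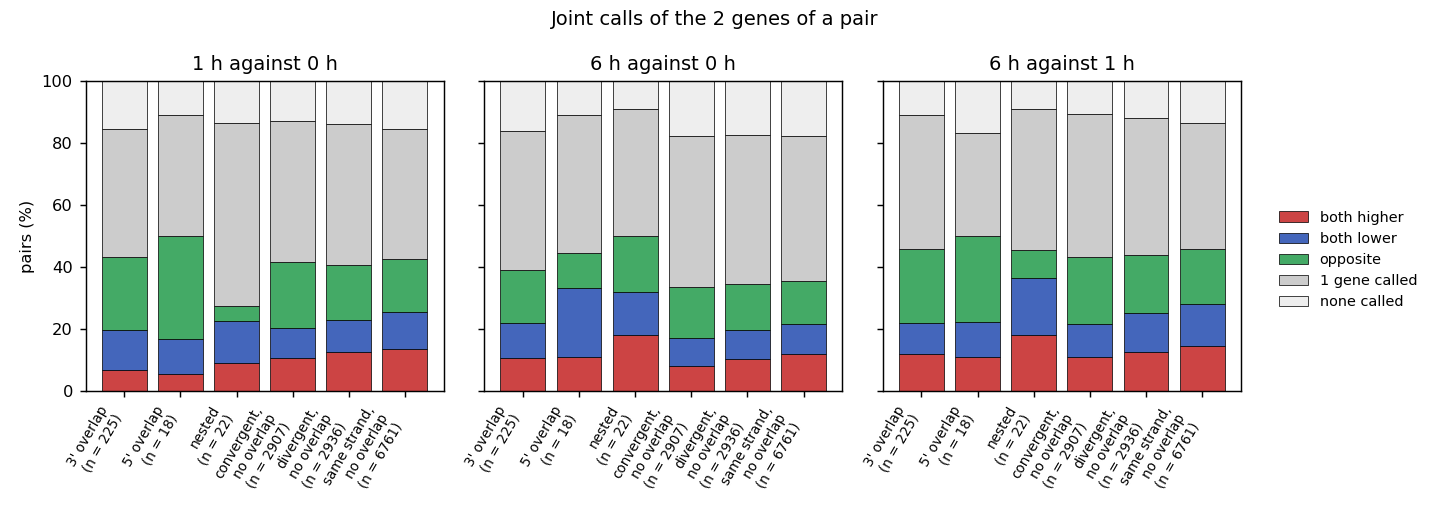
Share of pairs (%) in which both genes were higher, both lower, the genes changed in opposite directions, 1 gene passed the test or none did, in each comparison, for the 3 overlap types and for neighbouring pairs without overlap (n under each bar). In the 225 pairs that overlap at 3' ends, 19.6% moved together and 23.6% in opposite directions at 1 h, close to the 20.2% and 21.4% of convergent neighbours.

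By overlap type, the counts rest mostly on the 3' pairs, since the 5' and nested types are small. Among the 225 pairs at 3' ends, 44 moved together and 53 in opposite directions at 1 h, 49 and 39 at 6 h, and 49 and 54 from 1 h to 6 h. Among the 18 pairs at 5' ends the counts were 3 together and 6 opposite at 1 h, 6 and 2 at 6 h, and 4 and 5 between the heated times. Divergent neighbours without overlap and with a gap of up to 1000 bp, which also share a promoter region, had 25.6% same-direction and 8.87% opposite pairs at 1 h (203 pairs), 20.7% and 15.3% at 6 h, and 30.5% and 13.3% from 1 h to 6 h. Among the 22 nested pairs, 5 moved together and 1 in opposite directions at 1 h, 7 and 4 at 6 h, and 8 and 2 from 1 h to 6 h.

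Across pairs, the log2 fold changes of the plus-strand and the minus-strand gene were weakly related, with Pearson's r = 0.24 at 1 h, 0.20 at 6 h and -0.02 from 1 h to 6 h over the 265 pairs. These values describe pairs measured in the same 6 libraries and carry no p. The positive values rested on 2 pairs in which both genes had log2 fold changes of 5 or more at 1 h, Solyc01g095320.4 with Solyc01g095330.2 and Solyc09g015020.1 with Solyc09g015010.2. Without them r was -0.05 at 1 h and 0.05 at 6 h over 263 pairs. The fitted changes of Solyc01g095330.2 against 0 h depend on its 0 counts at 0 h and are no bounds. In nested pairs r was 0.92 at 1 h, 0.76 at 6 h and 0.61 from 1 h to 6 h. Without the single nested pair among those 2 pairs it was 0.67, 0.60 and 0.39 over 21 pairs. In 3' pairs r was 0.09, 0.10 and -0.10, and -0.11, -0.01 and -0.12 without the other of the 2. In the 6 pairs whose lower gene held less than 1% of the counts, r was 0.97, 0.95 and 0.90. Of these 6 pairs 3 are nested, and Solyc01g095320.4 with Solyc01g095330.2 is among them. The longer overlaps of at least 500 bp had r = 0.63 at 1 h over 68 pairs, nested pairs included, and 0.21 over 67 pairs without Solyc01g095320.4 and Solyc01g095330.2.

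**Figure D3:**
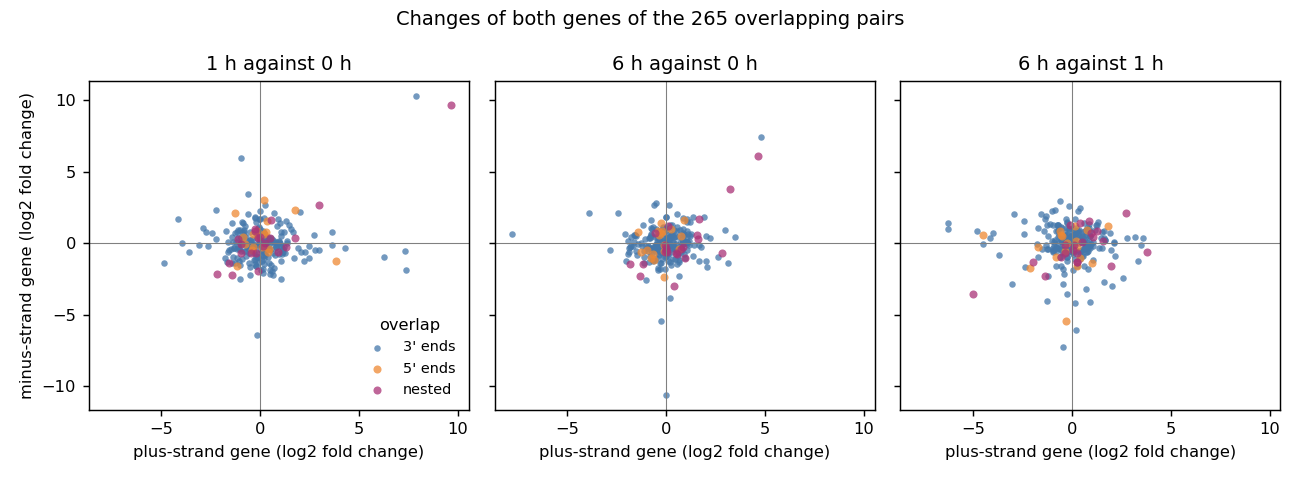
Log2 fold change of the plus-strand gene (x) and the minus-strand gene (y) of each of the 265 pairs in the 3 comparisons, coloured by overlap type. At 1 h, 2 pairs lie far out at the upper right, with changes of 7.86 and 10.28 and of 9.67 and 9.64. The 10.28 is the fitted value of Solyc01g095330.2, which had 0 counts at 0 h, and is no bound. In all, 20 genes that passed the test at 1 h have changes of 3 or more in either direction.

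Whether the 2 genes of a pair changed by unequal amounts was tested directly, on the ratio of plus-strand to minus-strand counts within each library, which does not depend on library scaling. The ratio changed in 169 pairs at 1 h (63.8%), 153 at 6 h (57.7%) and 165 from 1 h to 6 h (62.3%). Over all overlapping and neighbouring pairs together these shares were 61.8%, 55.3% and 62.7%. In convergent neighbours alone they were 65.7%, 58.0% and 67.4%. Divergent neighbours had 63.6%, 57.1% and 65.4%, and same-strand neighbours 59.3%, 53.2% and 59.5%. All 60 pairs called in opposite directions at 1 h also had a changed ratio, which opposite calls from the same counts make nearly certain. The ratio also changed in 88 of the 113 pairs in which only 1 gene had passed the test. Of the 52 same-direction pairs, 18 had a changed ratio. In nested pairs the ratio changed in 8 of 22 pairs at 1 h, in 13 at 6 h and in 11 from 1 h to 6 h; in 3' pairs it changed in 151, 130 and 143 of 225.

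Partners of strongly changed genes varied widely in their own change. At 1 h, 20 members passed the test with log2 changes of 3 or more in either direction, and the partner was called in the same direction for 7, in the opposite direction for 6 and not called for 7. Of those 7 same-direction cases, 4 are the 2 far-out pairs counted from both sides. The changes of Solyc01g095330.2 against 0 h, in 1 of these pairs, depend on its 0 counts at 0 h. The median absolute change of the 20 partners was 0.88, and 12 of them changed by less than 1. At 6 h against 0 h the partner was called in the same direction for 6 of 13 such members, in the opposite direction for 3 and not called for 4. These 6 cases are 3 pairs counted from both sides: Solyc01g095320.4 with Solyc01g095330.2, Solyc06g053210.4 with Solyc06g053220.3 and Solyc09g015020.1 with Solyc09g015010.2. The median absolute change of the 13 partners, these pairs included, was 2.09, and 5 of the 13 changed by less than 1. From 1 h to 6 h the partner was called in the same direction for 6 of 25, in the opposite direction for 10 and not called for 9. Solyc09g015020.1 and Solyc09g015010.2 were counted from both sides there too. Of these 25 partners, 18 changed by less than 1. Over all tested genes, 63.5%, 58.8% and 66.3% were called in the 3 comparisons.

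The time of the highest mean was also compared within pairs, whether or not a gene had passed the test. Both genes had their highest mean at the same time in 82 of 265 pairs (30.9%), at 0 h in 32, at 1 h in 22 and at 6 h in 28. The share was 33.2% in convergent, 38.1% in divergent and 41.4% in same-strand neighbours. Of the members, 37.5% were highest at 0 h, 30.7% at 1 h and 31.8% at 6 h, against 31.3%, 34.1% and 34.6% of all tested genes. In 244 pairs the same gene had more CPM per kb of span in both libraries of each time, and this was one and the same gene at all 3 times in 197 of them. The higher strand changed at 1 h and changed back at 6 h in 14 pairs, changed at 1 h and stayed changed in 17, and changed only at 6 h in 16.

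Of the pairs that changed in opposite directions at 1 h, 3 stood out by the size of their smaller change, and all 3 overlap at 3' ends. Solyc09g092670.3 (plus) and Solyc09g092680.4 (minus) share 284 bp on chromosome 9, from 68038360 to 68038643. Solyc09g092670.3 was at 95.1 and 94.1 CPM at 0 h, 21.1 and 19.1 after 1 h and 95.7 and 69.9 after 6 h. Solyc09g092680.4 was at 18.1 and 22.0 CPM at 0 h, 95.7 and 108 after 1 h and 12.2 and 13.2 after 6 h. The 2 genes thus exchanged places at 1 h and changed back, with no overlap between the 0 h and 1 h libraries for either gene. The log2 fold change at 1 h was -2.23 (SE 0.159, adjusted p = 8.32e-06) for Solyc09g092670.3 and 2.34 (SE 0.132, adjusted p = 2.53e-06) for Solyc09g092680.4. Their ratio fell by 4.58 on the log2 scale (SE 0.237, adjusted p = 1.16e-06) and rose again by 5.02 from 1 h to 6 h. Per kb of span Solyc09g092670.3 led at 0 h with 48.6 against 2.78 CPM, Solyc09g092680.4 led at 1 h with 14.1 against 10.3, and Solyc09g092670.3 led again at 6 h with 42.5 against 1.76.

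Solyc01g104740.3 (plus) and Solyc01g104750.4 (minus) share only 22 bp, on chromosome 1 from 87342358 to 87342379. Solyc01g104740.3 was at 5.67 and 4.29 CPM at 0 h, 826 and 835 after 1 h and 20.6 and 40.1 after 6 h. Solyc01g104750.4 was at 5.76 and 5.46 CPM at 0 h, 1.36 and 1.76 after 1 h and 2.61 and 3.11 after 6 h. Both genes were at about the same level before heat, after which one rose in both libraries and the other fell in both. The log2 fold changes at 1 h were 7.38 (SE 0.359, adjusted p = 1.29e-06) and -1.85 (SE 0.252, adjusted p = 2.95e-04). At 6 h both remained changed in the same directions, by 2.61 (adjusted p = 2.09e-04) and -0.97 (adjusted p = 0.00743). The minus-strand gene's share of the pair's counts went from 50.4% and 56.0% at 0 h to 0.165% and 0.21% at 1 h.

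Solyc03g121080.3 (plus) and Solyc03g121090.4 (minus) share 47 bp on chromosome 3, from 65339020 to 65339066. Solyc03g121080.3 was at 3.96 and 10.8 CPM at 0 h, 0.442 and 0.377 after 1 h and 5.94 and 2.59 after 6 h. Solyc03g121090.4 was at 77.6 and 84.6 CPM at 0 h, 269 and 252 after 1 h and 115 and 103 after 6 h. The minus-strand gene was the higher one in all 6 libraries, and its partner was lowest in the libraries of 1 h. At 1 h the changes were -4.16 (SE 0.652, adjusted p = 6.41e-04) and 1.68 (SE 0.119, adjusted p = 7.98e-06). The 2 libraries of 0 h differed for Solyc03g121080.3, and at 6 h its change of -0.80 did not pass the test (adjusted p = 0.191).

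The 3 pairs with the largest opposite changes at 6 h against 0 h also overlap at 3' ends, and all 3 exchanged the leading strand. Solyc08g007060.4 (plus) and Solyc08g007070.2 (minus) share 586 bp on chromosome 8, from 1626811 to 1627396. Solyc08g007060.4 was at 9.81 and 7.87 CPM at 0 h, 1.22 and 1.42 after 1 h and 0.653 and 0.552 after 6 h. Solyc08g007070.2 was at 0.334 and 0.562 CPM at 0 h, 0.59 and 0.964 after 1 h and 1.96 and 1.89 after 6 h. The order of the 2 genes was turned between 0 h and 6 h in both libraries, and the minus-strand gene's share of the counts went from 3.29% and 6.67% at 0 h to 75.0% and 77.4% at 6 h. The changes at 6 h were -3.87 (SE 0.274, adjusted p = 1.82e-05) and 2.09 (SE 0.39, adjusted p = 0.0021). Solyc08g007070.2 held only 8 and 14 counts at 0 h and 16 and 23 at 1 h. It passed the filter on low counts only through the libraries of 6 h, where it was high.

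Solyc01g112190.3 (plus) and Solyc01g112200.3 (minus) share 30 bp on chromosome 1, from 92551166 to 92551195. Solyc01g112190.3 was at 20.9 and 14.4 CPM at 0 h, 5.09 and 5.62 after 1 h and 4.73 and 1.89 after 6 h. Solyc01g112200.3 was at 0.96 and 1.44 CPM at 0 h, 1.81 and 2.6 after 1 h and 4.67 and 5.96 after 6 h. Outside 6 h it reached 50 counts only in the second 1 h library. The 6 h changes were -2.42 (SE 0.372, adjusted p = 7.77e-04) and 2.14 (SE 0.314, adjusted p = 6.19e-04), and at 1 h they were -1.72 (adjusted p = 0.0031) and 0.86 (adjusted p = 0.0478). The 6 h libraries differed in the minus-strand gene's share, which was 49.7% in one and 75.9% in the other. The 1 h call of Solyc01g112200.3 was lost without either 1 h library (0.58 and 1.11), without the first 0 h library (0.60) and without either 6 h library (0.86), and with DESeq2 (0.87, adjusted p = 0.0598).

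Solyc03g097830.3 (plus) and Solyc03g097840.3 (minus) share 120 bp on chromosome 3, from 56264948 to 56265067, and first rose together. Solyc03g097830.3 was at 4.26 and 4.58 CPM at 0 h, 12.3 and 9.85 after 1 h and 17.9 and 18.8 after 6 h. Solyc03g097840.3 was at 14.2 and 9.23 CPM at 0 h, 33.6 and 34.6 after 1 h and 3.55 and 3.95 after 6 h. At 1 h the genes rose by 1.33 (adjusted p = 2.04e-04) and 1.54 (adjusted p = 1.81e-04), and a difference between the 2 changes was not detected (ratio -0.25, adjusted p = 0.471). At 6 h against 0 h they had parted, with 2.05 (SE 0.169, adjusted p = 3.56e-05) and -1.64 (SE 0.211, adjusted p = 3.10e-04), and from 1 h to 6 h their ratio rose by 3.92 (adjusted p = 7.18e-06).

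**Figure D4:**
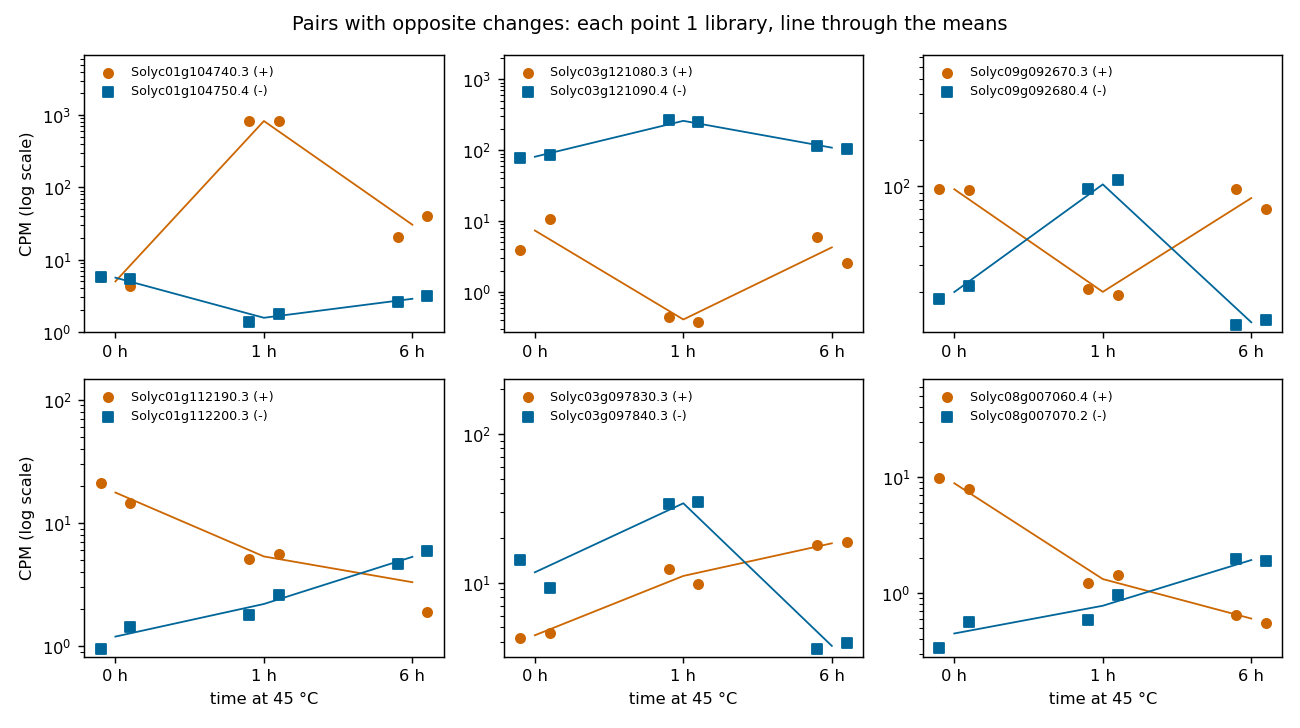
CPM (log scale) of both genes in each library at 0, 1 and 6 h for the 6 named pairs with opposite changes, the upper row for 1 h and the lower row for 6 h against 0 h; points are libraries, circles the plus-strand gene, squares the minus-strand gene, and lines join the means of 2 libraries. In the upper right panel Solyc09g092670.3 falls from 95.1 and 94.1 to 21.1 and 19.1 CPM at 1 h while Solyc09g092680.4 rises from 18.1 and 22.0 to 95.7 and 108.

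Among pairs with more than 3 counts in every library for both genes, the 2 pairs with the largest smaller rise and the 2 with the largest smaller fall at 1 h were nested; the 3' pair Solyc01g095320.4 with Solyc01g095330.2, described further on, rose together too but had 0 counts for one gene at 0 h. Solyc09g015020.1 (plus, 465 bp) lies wholly within Solyc09g015010.2 (minus, 9659 bp) on chromosome 9, from 7549018 to 7549482. Between the spans of Solyc09g015010.2 and Solyc09g015000.4 lie 2845 bp. Solyc09g015020.1 was at 2.09 and 2.53 CPM at 0 h, 1823 and 1936 after 1 h and 33.0 and 83.7 after 6 h. Solyc09g015010.2 was at 0.167 and 0.401 CPM at 0 h, 234 and 231 after 1 h and 7.44 and 32.2 after 6 h. The log2 fold changes at 1 h were 9.67 (SE 0.525, adjusted p = 2.17e-06) and 9.64 (SE 0.845, adjusted p = 2.45e-05), on a total of 14 counts of Solyc09g015010.2 at 0 h. A change of the ratio at 1 h was not detected (0.01, adjusted p = 0.991), and the share of Solyc09g015010.2 was 7.41% and 13.7% at 0 h and 11.4% and 10.6% at 1 h. It was 18.4% and 27.8% at 6 h, and the ratio fell by 1.28 from 1 h to 6 h (SE 0.272, adjusted p = 0.00288). The libraries of 6 h differed for both genes.

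Solyc11g006740.3 (plus, 2231 bp) lies wholly within Solyc11g006750.1 (minus, 3857 bp) on chromosome 11, from 1368695 to 1370925. Solyc11g006740.3 was at 11.5 and 13.4 CPM at 0 h, 98.0 and 97.0 after 1 h and 30.6 and 46.1 after 6 h. Solyc11g006750.1 was at 2.75 and 2.05 CPM at 0 h, 16.6 and 13.2 after 1 h and 2.71 and 3.29 after 6 h. Both rose at 1 h, by 2.97 (SE 0.195, adjusted p = 5.54e-06) and 2.64 (SE 0.234, adjusted p = 2.62e-05). At 6 h only Solyc11g006740.3 was still higher than at 0 h, by 1.62 (adjusted p = 1.95e-04), while Solyc11g006750.1 was at 0.32 (adjusted p = 0.279). The difference between the 2 changes at 6 h was 1.28 (adjusted p = 0.00406), and the share of Solyc11g006750.1 went from 19.3% and 13.2% at 0 h to 8.13% and 6.65% at 6 h.

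Of the 3 nested pairs in which both genes fell at 1 h, the 2 with the largest smaller change follow. Solyc07g043400.1 (minus, 204 bp) lies within Solyc07g043390.4 (plus, 3365 bp) on chromosome 7, from 57223029 to 57223232, the nested pair with the largest summed count. Solyc07g043390.4 was at 1544 and 1555 CPM at 0 h, 337 and 352 after 1 h and 773 and 600 after 6 h. Solyc07g043400.1 was at 2.5 and 2.05 CPM at 0 h, 0.663 and 0.335 after 1 h and 0.964 and 0.669 after 6 h, from 60 counts at most. It passed the filter on low counts only through the libraries of 0 h. The outer and the inner gene fell by 2.17 (SE 0.174, adjusted p = 1.55e-05) and 2.16 (SE 0.4, adjusted p = 0.00159) at 1 h. The share of Solyc07g043400.1 stayed between 0.0951% and 0.196% of the pair's counts in the 6 libraries while the other gene ranged from 337 to 1555 CPM, and whether its counts are reads of the other gene's strand was not tested.

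Solyc01g102280.3 (minus, 1007 bp) lies within Solyc01g102270.2 (plus, 3767 bp) on chromosome 1, from 85291966 to 85292972. Solyc01g102270.2 was at 4.05 and 6.18 CPM at 0 h, 2.1 and 1.72 after 1 h and 2.24 and 1.89 after 6 h. Solyc01g102280.3 was at 10.1 and 10.1 CPM at 0 h, 2.21 and 2.18 after 1 h and 1.96 and 2.12 after 6 h. Both fell at 1 h, by 1.42 (SE 0.291, adjusted p = 0.00277) and 2.20 (SE 0.202, adjusted p = 3.22e-05), and both stayed low at 6 h, at -1.31 (adjusted p = 0.00438) and -2.30 (adjusted p = 4.59e-05). The share of Solyc01g102270.2 was between 28.6% and 53.3%.

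At 6 h the pair that fell together with the largest smaller change was Solyc05g053080.2 (plus, 6950 bp) with Solyc05g053070.4 (minus, 414 bp), nested on chromosome 5 from 65849145 to 65849558. Here the small inner gene was the abundant one. Solyc05g053070.4 was at 668 and 660 CPM at 0 h, 597 and 582 after 1 h and 267 and 208 after 6 h. Solyc05g053080.2 was at 4.51 and 2.33 CPM at 0 h, 4.16 and 3.35 after 1 h and 1.09 and 0.814 after 6 h. The 6 h changes were -1.84 (SE 0.374, adjusted p = 0.00319) for Solyc05g053080.2 and -1.48 (SE 0.158, adjusted p = 1.21e-04) for Solyc05g053070.4. The share of Solyc05g053080.2 was between 0.351% and 0.693%, and the part of wrong-strand reads in it was not tested.

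The longest overlap of all was nested, 4948 bp on chromosome 12 from 36977974 to 36982921, between TomatoPan024720 (plus, 12427 bp) and TomatoPan015790 (minus). TomatoPan024720 was at 17.5 and 16.4 CPM at 0 h, 16.3 and 14.5 after 1 h and 26.9 and 29.9 after 6 h. TomatoPan015790 was at 3.13 and 3.29 CPM at 0 h, 0.848 and 0.796 after 1 h and 2.27 and 2.53 after 6 h. The inner gene fell at 1 h by 1.96 (SE 0.274, adjusted p = 3.38e-04) and rose again by 1.54 (adjusted p = 0.0012), and the outer gene rose only later, by 0.75 at 6 h (SE 0.124, adjusted p = 0.00117). The ratio rose by 1.83 at 1 h (adjusted p = 3.78e-04).

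**Figure D5:**
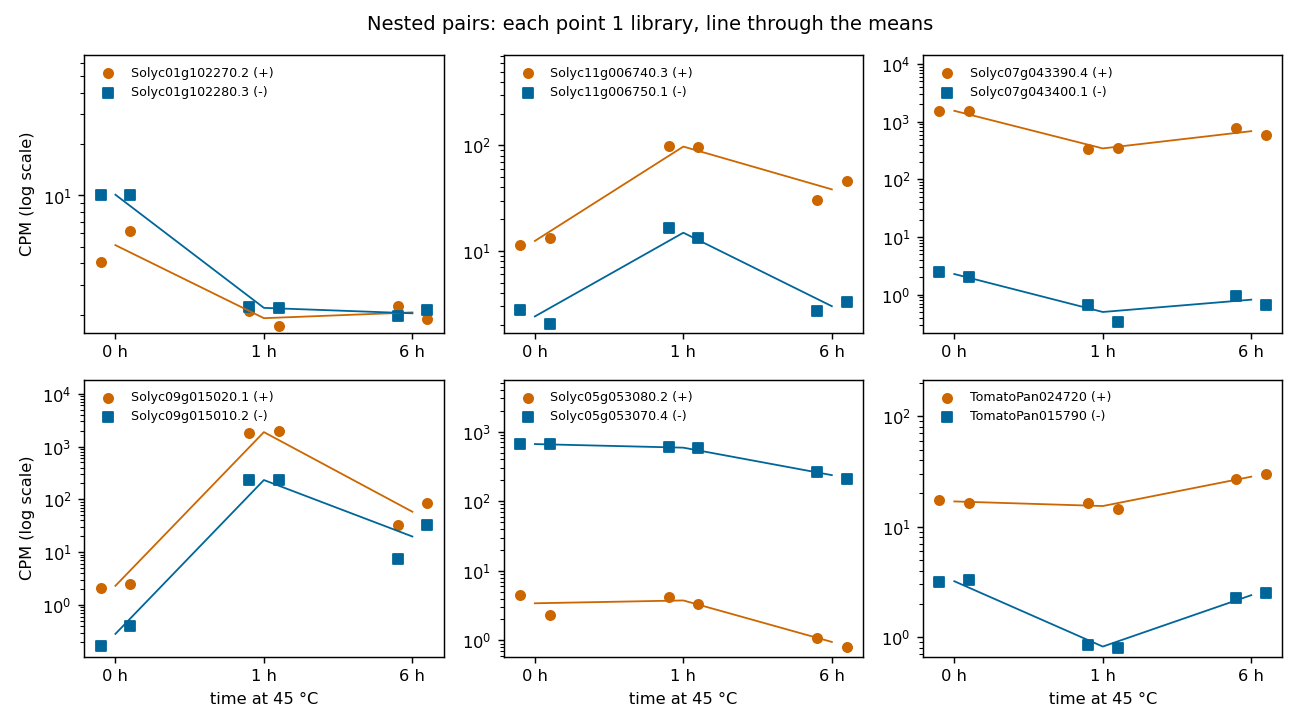
CPM (log scale) of both genes in each library at 0, 1 and 6 h for 6 named nested pairs; points are libraries, circles the plus-strand gene, squares the minus-strand gene, and lines join the means of 2 libraries. Solyc09g015020.1 and Solyc09g015010.2 run nearly parallel from 0 h to 1 h, whereas TomatoPan015790 falls from 3.13 and 3.29 to 0.848 and 0.796 CPM at 1 h while TomatoPan024720 stays between 14.5 and 17.5.

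The 3' pair with the most counts was Solyc01g095320.4 (plus) and Solyc01g095330.2 (minus), which share 1262 bp on chromosome 1 from 80810604 to 80811865. Solyc01g095320.4 was at 31.3 and 22.7 CPM at 0 h, 5864 and 6703 after 1 h and 884 and 630 after 6 h, a change of 7.86 at 1 h (SE 0.322, adjusted p = 5.91e-07). Solyc01g095330.2 had 0 counts in both 0 h libraries, 174 and 114 at 1 h and 35 and 16 at 6 h. It passed the filter on low counts only through the libraries of 1 h, where it was high. Set against a floor of 3 counts per library, the limit that a count of 0 allows and 0.125 CPM here, its mean at 1 h was at least 44.8-fold higher. Its share of the pair was between 0.0712% and 0.123% in the 4 heated libraries, and at that share the 751 and 566 counts of Solyc01g095320.4 at 0 h would leave it at or below the floor. Its fitted change of 10.28 depends on the 0 counts and is no bound, and the part of wrong-strand reads in it was not tested. This is 1 of the 2 pairs on which the correlation at 1 h rested.

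The longest overlap at 3' ends, 4335 bp on chromosome 11 from 59106840 to 59111174, lay between Solyc11g072630.2 (plus) and Solyc11g072640.3 (minus), and both changed little. Solyc11g072630.2 ranged from 4.76 to 7.37 CPM over the 6 libraries and passed the test in none of the 3 comparisons (adjusted p = 0.0988, 0.933 and 0.0785). Solyc11g072640.3 ranged from 8.59 to 14.4 CPM and was higher at 6 h by 0.67 (SE 0.154, adjusted p = 0.00577). The ratio differed between the heated times by -0.71 (adjusted p = 0.0386), a call lost without any one of the 1 h or 6 h libraries (-0.87 to -0.56).

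Among 5' pairs, the longest overlap joined Solyc01g109210.2 (plus) and Solyc01g109200.4 (minus), 1566 bp on chromosome 1 from 90501919 to 90503484, nearly the full length of both. Solyc01g109210.2 was at 19.4 and 13.7 CPM at 0 h, 19.1 and 21.3 after 1 h and 13.7 and 14.3 after 6 h. Solyc01g109200.4 was at 20.1 and 18.5 CPM at 0 h, 30.0 and 37.5 after 1 h and 44.5 and 56.1 after 6 h. The strands were nearly equal before heat and moved apart, Solyc01g109200.4 rising by 0.81 at 1 h (SE 0.156, adjusted p = 0.00199) and 1.38 at 6 h (SE 0.155, adjusted p = 1.54e-04). Solyc01g109210.2 did not pass the test against 0 h (adjusted p = 0.178 at 1 h and 0.253 at 6 h), and the ratio fell by 1.60 at 6 h (SE 0.214, adjusted p = 2.89e-04).

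The 5' pair with the most counts was Solyc02g085940.4 (plus) and Solyc02g085937.1 (minus), which share 1291 bp on chromosome 2 from 48429519 to 48430809. Solyc02g085940.4 was at 1131 and 1094 CPM at 0 h, 620 and 671 after 1 h and 500.0 and 343 after 6 h. Solyc02g085937.1 was at 3.88 and 5.7 CPM at 0 h, 4.79 and 4.23 after 1 h and 7.96 and 8.11 after 6 h. The abundant gene fell by 0.79 at 1 h (adjusted p = 0.00697; lost without the first 1 h library, at -0.73) and by 1.40 at 6 h (SE 0.196, adjusted p = 4.84e-04), while the scarce one was higher at 6 h by 0.75 (SE 0.223, adjusted p = 0.0194). The share of Solyc02g085937.1 rose from 0.342% and 0.518% at 0 h to 1.57% and 2.31% at 6 h, against the direction of its partner. The 6 h call of Solyc02g085937.1 was lost without the first 0 h library (0.50) and without either 6 h library (0.76 and 0.73).

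Solyc08g080030.4 (plus) and Solyc08g080040.4 (minus), which share 276 bp at their 3' ends on chromosome 8 from 64209129 to 64209404, showed the loss of 1 member beside a steady partner. Solyc08g080040.4 had 519 and 958 counts at 0 h, 7 and 11 after 1 h and 0 and 1 after 6 h. It passed the filter on low counts only through the libraries of 0 h. Solyc08g080030.4 had 879 and 843 counts at 0 h, 819 and 791 after 1 h and 1231 and 1084 after 6 h, or between 30.2 and 38.3 CPM throughout. The change of Solyc08g080040.4 at 1 h was -6.39 (SE 0.412, adjusted p = 4.91e-06), and at 6 h its 2 libraries together held 1 count, against 1477 at 0 h, so no fitted fold is given. For Solyc08g080030.4 no change passed the test (adjusted p = 0.308, 0.928 and 0.346 in the 3 comparisons).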

How the data were processed

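Per the file headers, the authors counted reads with featureCounts 2.0.0 in reverse-stranded mode, at a mapping quality of at least 30, over gene models version 1.1.0 of M82, so the deposited values are raw counts per gene span and replicates were not pooled. A read was counted for each gene of its strand that it overlaps. The option to count multi-mapped reads was set together with the limit on mapping quality. Which reads of near-identical copies were kept was not tested, so their counts are uncertain. The headers name alignments by Bowtie with PCR duplicates removed, and the submitters' processing notes list Trimmomatic 0.38, Bowtie2 2.3.5 and SAMtools 1.9; the study's methods name another aligner, STAR. The study describes single reads of 75 bp, whereas the headers show an option for paired reads. Solyc09g015020.1, with a span of 465 bp, held 49471 counts in the first 1 h library. Those are more counts than the span has start positions for single reads on its strand. Whether duplicates were absent from the counted alignments, and whether single or paired reads were counted, was not tested. Duplicate removal, where done, can lower the counts of the most abundant genes.

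The filter of the study, 50 or more counts in 2 or more libraries, was applied, and the genes left were tested with edgeR 4.0.16 in R 4.3.3 (TMM scaling, quasi-likelihood F test, two-sided, all 6 libraries, 3 residual and 5.42 prior degrees of freedom). Benjamini-Hochberg adjustment ran over 19123 genes, and a gene was called at an adjusted p below 0.05. A gene could pass the filter through the 2 libraries of a single time, and its change against that time is then partly selected for. The common biological coefficient of variation was 12.3%. CPM used TMM-scaled library sizes, except for the marker identifiers, whose CPM used the library's own total. Standard errors of log2 changes were derived from F as size over root F. A pair was a pair of opposite-strand genes whose spans share at least 1 bp.

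The strand ratio was tested with edgeR on a table of 1 row per pair and 12 columns, with a term for each library, and p-values were adjusted over 12869 overlapping and neighbouring pairs. Neighbours were consecutive genes of the table without overlap, both tested. The gene test and the ratio test of edgeR were first run on simulated counts in which few genes changed, unlike the real data. The other summaries were not simulated. Depth was 25147160 to 30738632 counts, and intervals and floors cover counting error only. Named pairs were the 3 called in opposite directions with the largest smaller change at 1 h and at 6 h against 0 h, 2 higher and 2 lower together at 1 h, 1 of each at 6 h, the longest overlap and largest summed count in each type, pairs holding a heat-list identifier, and the pair Solyc08g080030.4 with Solyc08g080040.4; in the sets chosen by change, both genes had more than 3 counts in every library. Of the 5 heat-list identifiers, 1 was in a pair, Solyc01g104740.3. Members, lists and tests were chosen with earlier results of these data known. Alternatives were DESeq2 1.42.0, other scalings, filters, thresholds and overlap limits, a replicate block, and leaving out each library. No gene names, roles or sequences are given, because 0 of the 35603 identifiers matched the reference gene table.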

Additional observations from a re-analysis of the deposited data

Results flagged for a closer look

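The change of the strand ratio at 1 h and at 6 h differed in 12 of the named pairs, by the edgeR test of the ratio at 6 h against 1 h, adjusted over all overlapping and neighbouring pairs. The same test was passed by 62.3% of the overlapping pairs and by 62.7% of all overlapping and neighbouring pairs. Many of the named pairs were chosen by the size of their change, so their number is no result in itself. Values are log2 changes of the ratio of plus-strand to minus-strand counts, and positive values favour the plus-strand gene. In 3 pairs the ratio moved far at 1 h and was nearer to its 0 h level at 6 h. For Solyc01g104740.3 against Solyc01g104750.4 it was 9.24 at 1 h and 3.53 at 6 h, a difference of -5.71 (adjusted p = 1.51e-06). The change at 6 h against 0 h still passed the test (adjusted p = 2.43e-05). For Solyc09g092670.3 against Solyc09g092680.4 it was -4.58 and 0.44, a difference of 5.02 (adjusted p = 1.10e-06). For Solyc03g121080.3 against Solyc03g121090.4 it was -5.73 and -1.19, a difference of 4.54 (adjusted p = 1.54e-04). Here too the change at 6 h against 0 h passed the test (adjusted p = 0.0435), a call lost with the replicate block (-1.18).

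In 5 pairs the ratio was further from 0 at 6 h than at 1 h, with the same sign. It went from -2.55 to -4.63 in Solyc01g112190.3 against Solyc01g112200.3 (difference -2.08, adjusted p = 0.0098), a call lost without the first 1 h library (-1.90) or the second 6 h library (-1.28). It went from -3.49 to -5.95 in Solyc08g007060.4 against Solyc08g007070.2 (difference -2.46, adjusted p = 0.00148). In Solyc08g080030.4 against Solyc08g080040.4 the difference was 4.33 (adjusted p = 0.0072), which rests on 18 counts of the minus-strand gene at 1 h and 1 at 6 h and was lost without the first 6 h library (3.40). In Solyc01g109210.2 against Solyc01g109200.4 it was -1.11 (adjusted p = 0.00152), and in Solyc02g085940.4 against Solyc02g085937.1 it was -1.47 (adjusted p = 0.00168); in these last 2 pairs the change of the ratio at 1 h had not passed the test.

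In the remaining 4 pairs, too, the change of the ratio at 1 h had not passed the test. The difference was 3.92 in Solyc03g097830.3 against Solyc03g097840.3 (adjusted p = 7.18e-06), 0.94 in Solyc11g006740.3 against Solyc11g006750.1 (adjusted p = 0.00864; lost without the first 1 h library, at 0.79, and without the second 6 h library, at 0.78), -1.28 in Solyc09g015020.1 against Solyc09g015010.2 (adjusted p = 0.00288) and -0.71 in Solyc11g072630.2 against Solyc11g072640.3 (adjusted p = 0.0386; lost without any 1 of the 1 h or 6 h libraries, at -0.87 to -0.56).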

How the results depend on the processing

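Counts are given in the order 1 h against 0 h, 6 h against 0 h and 6 h against 1 h. Requiring an absolute log2 change of at least 1 left 170, 142 and 148 member genes, 21, 15 and 13 same-direction pairs and 12, 7 and 16 opposite pairs. An adjusted p below 0.01 left 35 opposite pairs at 1 h, 39 same-direction and 28 opposite pairs at 6 h, and 36 and 38 from 1 h to 6 h. With no filter on low counts (556 pairs), 525, 518 and 556 member genes were called and r was 0.11, 0.15 and 0.10, the last of the other sign. With overlaps of at least 100 bp (177 pairs), 221 genes, 33 same-direction and 38 opposite pairs were called at 1 h and 29 opposite pairs at 6 h, and r was 0.37, 0.25 and, with the sign turned, 0.05. With both genes at 50 counts or more in every library (199 pairs), r was -0.04, 0.10 and -0.11. Where the lower gene held at least 5% of the counts, r was 0.10 at 6 h. Without the 2 pairs that rose by at least 5, a choice made after seeing the data, r was -0.05, 0.05 and -0.07.

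Leaving out single libraries gave 34 to 54 same-direction and 36 to 59 opposite pairs at 1 h, 39 to 65 same-direction pairs and r of 0.16 to 0.20 at 6 h, and 33 to 67 same-direction and 36 to 68 opposite pairs from 1 h to 6 h; the time left with 1 library was assumed to vary like the others. The number of pairs with a changed ratio stayed within 1.5 times under every alternative run for it. The cause of these shifts was not tested.

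Libraries of the same replicate number shared little of their deviation from the means of their times. The correlations were -0.083 for 0 h and 1 h, -0.0213 for 0 h and 6 h and 0.162 for 1 h and 6 h. With 2 libraries per time, these values cannot show whether libraries of the same number were handled together. With the number as a replicate block, member genes numbered 334, 327 and 352, same-direction pairs 51, 60 and 60, opposite pairs 60, 44 and 61, pairs with a changed ratio 174, 154 and 168, and r was 0.25, 0.19 and -0.01; the ratio of Solyc07g043390.4 to Solyc07g043400.1 at 1 h was then 0.01 and that of Solyc09g015020.1 to Solyc09g015010.2 was -0.02, neither called.

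For the named genes and pairs, 1777 recomputed values kept sign and call, 61 lost the call, 39 gained it and 37 turned sign. Each of the 37 was a change that had not passed the test. With scaling to library size or by upper quartiles, Solyc01g102280.3 was at 0.32 and 0.13 (6 h against 1 h), Solyc11g072630.2 at 0.25 and 0.06 and Solyc08g080030.4 at 0.25 and 0.07 (6 h against 0 h), and Solyc05g053080.2 at -0.00 and -0.00 (1 h against 0 h); with library size alone, Solyc01g109210.2 was at 0.03 and Solyc09g092670.3 at 0.07 (6 h against 0 h). Without single libraries, 6 h against 0 h, Solyc01g109210.2 ranged from -0.52 to 0.03, Solyc11g072630.2 from -0.19 to 0.13, Solyc03g121080.3 from -1.52 to 0.05, Solyc08g080030.4 from -0.16 to 0.12, Solyc09g092670.3 from -0.44 to 0.02 and the ratio of Solyc05g053080.2 from -0.75 to 0.19. At 1 h, Solyc02g085937.1 ranged from -0.33 to 0.20, Solyc05g053080.2 from -0.28 to 0.69 and the ratios of Solyc05g053080.2 from -0.08 to 0.85, Solyc11g072630.2 from -0.16 to 0.22, Solyc03g097830.3 from -0.61 to 0.11, Solyc07g043390.4 from -0.43 to 0.60 and Solyc09g015020.1 from -0.59 to 0.37. From 1 h to 6 h, Solyc01g102270.2 ranged from -0.03 to 0.26, Solyc08g080030.4 from -0.01 to 0.27 and the ratios of Solyc01g095320.4 from -0.49 to 0.26 and Solyc07g043390.4 from -0.30 to 0.73.

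Depth limits the scarce partners: 6 pairs had a lower gene under 1% of the counts, and in 5 pairs a gene had at most 3 counts in some library.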
